A study of Mus musculus with 8 samples.

Results

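The 10 genes described here encode feedback inhibitors and feedback-linked transcription factors of the ERK (extracellular signal-regulated kinase) pathway. They are the phosphatases Dusp6, Dusp4 and Dusp5, the Sprouty genes Spry1, Spry2 and Spry4, the Spred genes Spred1 and Spred2, and the ETS factors Etv4 and Etv5. They were taken by name from 21368 genes that the array probes name through RefSeq accessions, and all 10 were among the 16618 genes bright enough to be tested. The set was chosen by the measured values of Dusp6, which had been noted as lower in treated mice in these same data, and the other 9 were added for their known role. For that reason the difference between treated and untreated mice is given for the 10 genes as a description, with no test.

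RNA came from the hippocampus of 8 female mice, each measured on 1 single-colour Agilent expression array. All 8 were nontransgenic littermates of APPswe695/PSEN1dE9 mice on a C57BL/6J background, so no mouse carried the Alzheimer transgenes. The 4 Control mice were untreated and 19 weeks old. The 4 Hydroxyurea mice drank hydroxyurea, an inhibitor of ribonucleotide reductase, at 45 mg/kg/day for 10 weeks from an age of 9 to 14 weeks, and were 24 weeks old (Hydroxyurea 1 and 2) or 19 weeks old (Hydroxyurea 3 and 4) at the end. Cages were shared per the labels, without saying by which mice. Bulk tissue was measured, so fewer cells of a type and less RNA per cell cannot be told apart.

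ERK is the last kinase of a relay that runs from growth factor and neurotrophin receptors through RAS, RAF and MEK. Active ERK induces its own brakes: Dusp4, Dusp5 and Dusp6 remove phosphate from MAP kinases, and Sprouty and Spred proteins act upstream, on the step from receptor and RAS to RAF. Etv4 and Etv5 are ETS transcription factors of the PEA3 group that respond to FGF signals. In the hippocampus the pathway is known for its part in synaptic plasticity and memory. ERK phosphorylation was not analysed here, and the arrays measure mRNA alone.

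The arrays shared 1 slide and 1 scan, with Control in row 1 and Hydroxyurea in row 2, and an effect of the row cannot be told apart from one of the treatment. Signals were put on a log2 scale on which 0 is the 75th percentile of the array, here called the scaled log2 signal. That percentile was 1052 on Hydroxyurea 2, the dimmest array, and 1677 to 2417 on the other 7. Replicate spots varied by 10.6% on Control 1 and by 3.19% to 3.56% on the others, so Control 1 is the noisy array. Hippocampal markers were present: 10 of 10 dentate gyrus and 9 of 10 pyramidal cell markers were bright enough to be tested.

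Start-site sequences are shown for the members with the lowest treatment differences, Dusp6 and Spred1, and for Dusp5, because ERK acts on transcription largely through ETS factors and through serum response factor, which binds CArG boxes. They are the 250 bases before the start site on the coding strand, from RefSeq on GRCm38.p6. The files' headers name another build, mm9. RefSeq promoters of 7 of the 10 genes were searched, and those of Dusp4, Spry4 and Etv4 were not. The 7 genes gave 8 windows, with Etv5 counted at each of its start sites. Capitals mark a match, on either strand, to the motifs searched. These were the ETS sequence CCGGAAGT and the CCGGAA within it, the AP-1 sequence TGAGTCA and the GC box GGGCGG. Also searched were the cAMP element TGACGTCA, the TGACG within it, and the CArG box. A CArG box is CC, then 6 bases of A or T, then GG.
Dusp6, chr10:99262981-99263230, plus strand: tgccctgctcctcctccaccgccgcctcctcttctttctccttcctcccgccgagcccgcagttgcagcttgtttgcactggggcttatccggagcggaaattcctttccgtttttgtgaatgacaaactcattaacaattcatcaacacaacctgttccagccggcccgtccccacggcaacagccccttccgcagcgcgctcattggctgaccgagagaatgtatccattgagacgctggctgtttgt
Spred1, chr2:117120821-117121070, plus strand: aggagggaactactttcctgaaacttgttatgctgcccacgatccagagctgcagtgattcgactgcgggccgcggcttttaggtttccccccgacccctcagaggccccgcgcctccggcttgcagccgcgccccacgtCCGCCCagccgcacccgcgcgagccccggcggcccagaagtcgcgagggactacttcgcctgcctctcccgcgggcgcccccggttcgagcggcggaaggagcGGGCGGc
Dusp5, chr19:53528895-53529144, plus strand: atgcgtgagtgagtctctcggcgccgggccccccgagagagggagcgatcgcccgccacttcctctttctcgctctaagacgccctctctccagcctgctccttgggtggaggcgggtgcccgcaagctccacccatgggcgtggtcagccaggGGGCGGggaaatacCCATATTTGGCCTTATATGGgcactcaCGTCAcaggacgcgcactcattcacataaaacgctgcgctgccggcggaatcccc

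The Dusp5 window held 2 CArG boxes side by side, at 82 to 73 and at 72 to 63 bases before the start site. A CArG box occurred in 1 of 8 windows of these genes and in 1.47% of 32851 windows of all genes. CCGGAA was found in 0 of the 8 windows and in 12% of all windows. The longer ETS sequence, AP-1 and the whole cAMP element were likewise in 0 of 8. Among all windows those 3 were found in 2.88%, 4.46% and 1.55%. The Dusp6 window held none of the searched letters. The shorter GGAA within the ETS sequence was not searched by itself, and the Dusp6 window holds it. A GC box was present in 5 of 8 windows, against 32.7% of all windows, and TGACG in 2 of 8, against 17.8%. A match is a stretch of letters and not a measured binding site, and a window without one says nothing about the factor.

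The group means of 9 of the 10 genes were lower in treated mice, with a median log2 difference of -0.12. Over all genes tested 51.3% were lower, and the median was -0.0038. The differences were small. The lowest were those of Dusp6 (-0.30 ± 0.09) and Spred1 (-0.29 ± 0.12), and the highest was that of Spry1 (0.03 ± 0.33), each as Hydroxyurea minus Control with the SE of the limma fit and n = 4 per group. In the same contrast 0 of 16618 genes passed a limma adjusted p under 0.05 (0% called), and the rule that chose these genes used this contrast, so nothing is read from the counts.

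**Figure D1:**
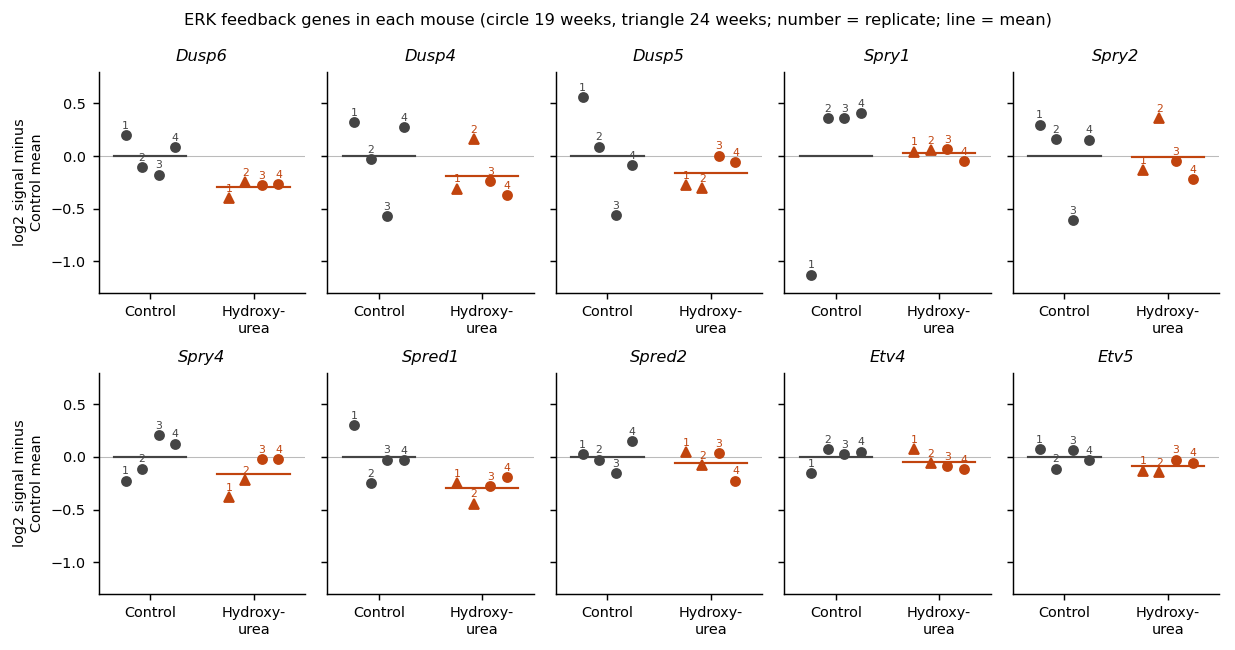
Scaled log2 signal of each of the 10 genes in each mouse, minus the Control mean of that gene (y axis, log2), with Control in grey, Hydroxyurea in orange, circles for 19 weeks, triangles for 24 weeks, replicate numbers beside the points and lines at group means. The 4 treated points of Dusp6 lie below the 4 Control points, and Control 1 lies 1.49 below the next Control mouse for Spry1.

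Dusp6 (NM_026268), a cytoplasmic phosphatase with high selectivity for ERK, had scaled log2 signals of 3.61, 3.31, 3.24 and 3.50 in Control 1 to 4. In Hydroxyurea 1 to 4 they were 3.02, 3.17, 3.14 and 3.15. All 4 treated mice lay below the lowest Control mouse, with a gap of less than 0.1 between Hydroxyurea 2 and Control 3. That ordering, treated below Control without overlap, occurred for 1 of the 10 genes and for 5.11% of all genes tested. The treated mean was 81.4% of the Control mean on the linear scale. Treated mice were also closer together, with an SD of 0.07 against 0.17 in Control. Without the noisy array Control 1 the difference was -0.23 ± 0.08. It was -0.27 when the 19-week treated mice alone were set against the Control mice, which had the same age.

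Dusp4 (NM_176933) encodes a nuclear MAP kinase phosphatase. Its values were -0.85, -1.20, -1.75 and -0.90 in Control 1 to 4. The treated mice had -1.48, -1.01, -1.41 and -1.55. The groups overlapped widely, since Control 3 was the lowest of all 8 mice and Hydroxyurea 2 lay above Control 2. The difference of -0.19 ± 0.21 was -0.38 without Control 3 and -0.08 without Control 1.

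Dusp5 (NM_001085390), a nuclear phosphatase selective for ERK, was dim. It was well above background on the 4 Control arrays and on 2 Hydroxyurea arrays, those of the 19-week mice. The Control values were -4.39, -4.86, -5.51 and -5.03, and the Hydroxyurea values -5.22, -5.25, -4.94 and -5.01. Here Control mice spanned the whole range, with Control 1 highest and Control 3 lowest. The difference of -0.16 ± 0.22 turned to 0.03 without Control 1 and to 0.10 with normexp background correction.

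Spry1 (NM_011896) belongs to the Sprouty inhibitors of receptor tyrosine kinase signals, and its 8 values split in an unusual way. Control 2, 3 and 4 lay at 0.83, 0.84 and 0.88, while Control 1 was at -0.66. Hydroxyurea 1 to 4 lay at 0.52, 0.53, 0.54 and 0.43. So the treated mice and 3 Control mice each formed a tight set, with SDs of 0.05 and 0.03, and 1 Control mouse stood far from both. With all mice the difference was 0.03 ± 0.33. Without Control 1 it was -0.35 ± 0.05, which was then the lowest of the 10, and all treated values lay below the remaining Control values. That ordering without Control 1 held for 11.7% of all genes tested, Spry1 and Dusp6 among them. A gap of 1.49 or more between Control 1 and the lowest other Control mouse was found for 152 of 16585 genes with a value in every mouse.

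**Figure D2:**
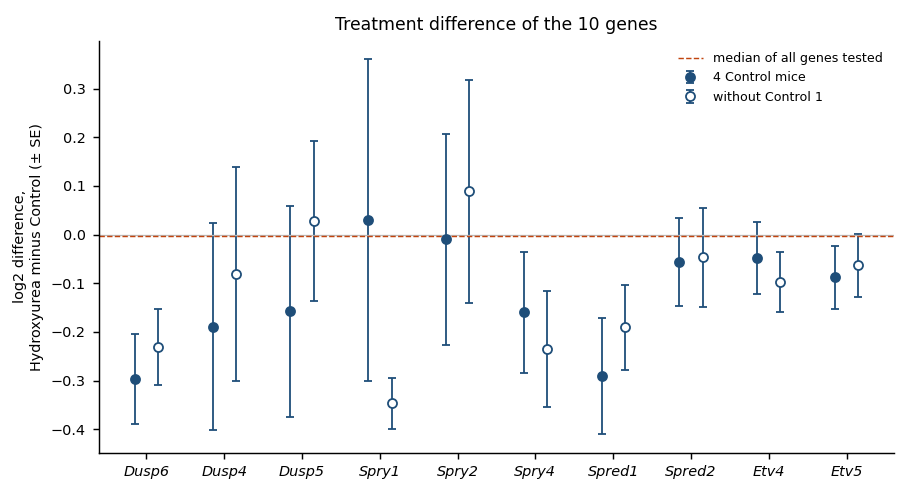
Log2 difference, Hydroxyurea minus Control (y axis), for each of the 10 genes (x axis) with all 4 Control mice (filled) and without Control 1 (open), with the SE of the fit as bars and the median of all genes tested as a dashed line. Spry1 moves from 0.03 to -0.35 when Control 1 is left out, and Dusp6 from -0.30 to -0.23.

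Spry2 (NM_011897), a second Sprouty inhibitor, had values of -2.98, -3.12, -3.89 and -3.12 in Control 1 to 4. Its Hydroxyurea values were -3.42, -2.92, -3.33 and -3.50. Control 3 was again the lowest mouse, and Hydroxyurea 2 was the highest. The difference was -0.010 ± 0.22, and it was -0.21 without Control 3 and 0.09 without Control 1. Spry4 (NM_011898), the third, lay at -2.97, -2.86, -2.54 and -2.62 in the Control mice and at -3.13, -2.97, -2.77 and -2.77 in the treated mice. The difference was -0.16 ± 0.13, and the groups overlapped. The difference from Control was -0.02 for the 19-week treated mice and -0.30 for the 24-week treated mice, of which Hydroxyurea 1 alone lay below every Control mouse.

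Spred1 (NM_033524) and Spred2 (NM_033523) encode inhibitors that recruit neurofibromin to RAS at the membrane. The Control mice had Spred1 values of 2.17, 1.62, 1.84 and 1.84, and the Hydroxyurea mice 1.62, 1.42, 1.59 and 1.67. Of the treated mice, 3 lay below the lowest Control mouse, Hydroxyurea 1 only just, and Hydroxyurea 4 lay above it. The Spred1 difference of -0.29 ± 0.12 was -0.19 without Control 1. Spred1 was read by 3 probes, and all 3 means were lower in treated mice. The differences were -0.29 for the brightest probe, -0.09 for a second probe of the same transcript and -0.50 for the dimmest, which is assigned to another transcript (NM_001277256). Spred2 lay at 0.97, 0.92, 0.79 and 1.10 in the Control mice. With treated values of 0.99, 0.86, 0.98 and 0.72, its difference was -0.06 ± 0.09 and the groups overlapped.

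Etv4 (NM_008815) had values of 0.78, 1.01, 0.96 and 0.99 in the Control mice, and the treated mice had 1.01, 0.87, 0.84 and 0.82. Its difference was -0.05 ± 0.07, and its second probe had -0.13. Etv5 (NM_023794) lay at 4.24, 4.05, 4.23 and 4.14 in the Control mice and at 4.04, 4.02, 4.14 and 4.11 in the treated mice, a difference of -0.09 ± 0.07. Both ETS factors overlapped between the groups. They were also the steadiest of the 10: the SD within groups was 0.09 for Etv4 and 0.08 for Etv5, lower values than for most genes, since 23.3% and 13.1% of genes tested had a smaller one. Spry1 was the most variable, at 0.53, with 93.9% of genes below it. Counting every probe, 12 of the 13 probes of these genes had a lower mean in treated mice.

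Marker mRNA of several cell types also differed between mice. Dentate gyrus markers had 6 of 10 genes lower in treated mice (7 under each other scaling), with a median of -0.16. The score of that list, the mean over its genes of the log2 value minus the gene's mean, ran from -0.24 to 0.23 in Control and from -0.21 to 0.20 in Hydroxyurea mice. Choroid plexus markers had 10 of 10 genes higher, with a median of 1.30 and scores from -2.13 to 0.88 in Control and from -1.26 to 2.76 in Hydroxyurea mice. Ependyma markers had 8 of 8 higher, with a median of 0.59 and scores from -1.99 to 0.73 and from -0.50 to 1.58. Oligodendrocyte markers had 8 of 10 higher (4 with median centring and 5 with normexp), with a median of 0.05. Oligodendrocyte precursor markers had 6 of 10 lower (5 with quantile normalization, 8 with median centring and 4 with normexp), with scores from -0.15 to 0.09 in both groups. The dentate gyrus score was also used as a covariate in the treatment fit. The difference of Dusp4 was then -0.014 (-0.19 without it) and that of Spry2 0.17 (-0.010 without it). Spry1 changed to below 0, and the other genes stayed below 0. These values are descriptions, and the part of these lists in the differences of the 10 genes was not tested.

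How the 10 genes vary together from mouse to mouse does not rest on the difference between the groups once each group mean is subtracted. Of 45 pairs, 21 had a within-group Pearson r above 0 and 24 below 0, with a median of -0.04, so the 10 genes did not rise and fall as 1 block. The highest value joined Dusp4 and Spry2 (r = 0.96 over 8 mice). At least as high an r with Dusp4 was found for 29 of the other genes tested (0.175%), and with Spry2 for 46 (0.277%). The r of this pair, singled out after its value was seen, ran from 0.894 to 0.996 when each mouse was left out in turn. It was 0.94 with normexp. The lowest value, -0.81, joined Spry1 and Spred1, for which Control 1 was the lowest and the highest mouse.

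Dusp4 and Spry2 were both lowest in Control 3 and low in Hydroxyurea 1, 3 and 4. The same mice had the low dentate gyrus scores: -0.24 in Control 3 and -0.14, -0.06 and -0.21 in Hydroxyurea 1, 3 and 4. The scores were 0.12, 0.11 and 0.23 in Control 1, 2 and 4 and 0.20 in Hydroxyurea 2. Within groups Dusp4 correlated with this score at r = 0.94 (rho = 0.98) and Spry2 at r = 0.94 (rho = 0.93), over 8 mice. With the pyramidal cell score, Spry2 had r = 0.92 (rho = 0.95; r = 0.61 with median centring) and Dusp4 had r = 0.88 (rho = 0.91). These belong to 110 relations of 10 genes with 11 cell type scores, computed after seeing the data, with exact permutation of mice within groups (two-sided).

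The exact p for r was 0.00868 for Dusp4 and 0.0139 for Spry2 with the dentate gyrus score, and 0.00174 for Spry2 with the pyramidal score, the smallest possible. The same 3 exact p-values for rho were 0.00868, 0.0226 and 0.00174. After Benjamini-Hochberg adjustment over the 110, exact p-values of r were 0.159, 0.218 and 0.0955, and those of rho 0.223, 0.297 and 0.0955. For Dusp4 with the pyramidal score the exact p was 0.00868 for r and for rho, adjusted 0.159 and 0.223, and r was 0.75 without the 2 farthest mice. With the ependyma score, Spry2 had r = -0.74 (exact p = 0.0851, adjusted 0.525) and rho = -0.88 (exact p = 0.0104, adjusted 0.223). Dusp4 had r = -0.73 with it (exact p = 0.0747, adjusted 0.525) and rho = -0.86 (exact p = 0.0156, adjusted 0.246). Without the 2 farthest mice these r were -0.55 and -0.49. Dusp5, the dim gene, had r = 0.75 with the interneuron score (exact p = 0.00521, adjusted 0.159) and rho = 0.83 (exact p = 0.0243, adjusted 0.297), and r was 0.93 without the 2 farthest mice. None of the 110 passed 0.05 after adjustment, and the smallest possible p does not pass on its own. Without the 2 mice farthest from the median of the score, the 3 values of r were 0.85, 0.85 and 0.85. For Dusp4 and Spry2 with the dentate gyrus score, r was 0.87 to 0.99 over the other scalings, filters and left-out mice. Dusp6 had r = 0.59 with that score (exact p = 0.144, adjusted 0.561) and rho = 0.69 (exact p = 0.0451, adjusted 0.411), and r was 0.25 without Control 3 and 0.15 with normexp.

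**Figure D3:**
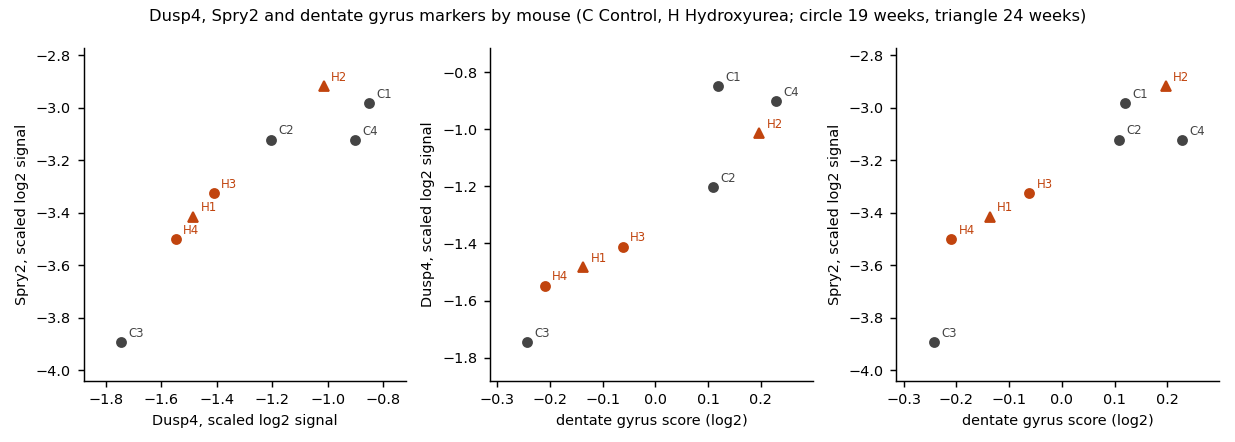
Scaled log2 signals of Dusp4 and Spry2 and the dentate gyrus marker score (log2) in each mouse, labelled C for Control and H for Hydroxyurea, with circles for 19 weeks and triangles for 24 weeks. Control 3 has the lowest Dusp4 (-1.75), Spry2 (-3.89) and score (-0.24), and Hydroxyurea 1, 3 and 4 lie next to it in each panel.

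Spred1 had its highest coefficients with other scores, and these did not pass after adjustment either. Its within-group r was 0.77 with the oligodendrocyte score (rho = 0.95, exact p = 0.00174, adjusted p = 0.0955 for each) and 0.82 with the precursor score (exact p = 0.00868, adjusted p = 0.159; rho = 0.86, exact p = 0.0122, adjusted p = 0.223). Without the 2 farthest mice the first was 0.57 and the second 0.50. The oligodendrocyte score was -0.27 in Control 2 and -0.38 in Hydroxyurea 2, the mice with the lowest Spred1 of their groups, and 0.02 to 0.23 in the other 6.

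Against Dusp6 itself, none of the other 9 genes passed after adjustment over the 9 pairs, by exact permutation within groups, two-sided. Dusp4 had the highest r (0.80, exact p = 0.0347, adjusted 0.195) with rho = 0.71 (exact p = 0.0278, adjusted 0.25). Without Control 1 and Control 3, the mice farthest from the median of Dusp6, its r was 0.55. With normexp it was 0.19. Etv4 had the lowest (r = -0.73, exact p = 0.0434, adjusted 0.195; rho = -0.55, exact p = 0.198, adjusted 0.594), and without those mice r was -0.65. The other 7 genes had r from -0.70 for Spry1 to 0.75 for Dusp5, with exact p from 0.0868 to 0.628, and rho from -0.38 to 0.60, with exact p from 0.135 to 0.691. Without Control 1 and Control 3 these were -0.04 for Spry1 and -0.11 for Dusp5. An r as high as that of Dusp4 was found for 2.98% of all genes.

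The genes whose scaled log2 signals were most like those of Dusp6 over the 8 mice lay outside the pathway. Dgkd, a diacylglycerol kinase gene, had r = 0.99 and put the 8 mice in the same order. Others near the top were Fcf1 (0.96), Tmem151b (0.96) and Pcdhb3 (0.95). They were picked as the highest coefficients over the genes tested, with clone and locus names left out, so they describe likeness and no more. Group means were not subtracted here, so these r contain the difference between the groups that the rule used. The closest of the 10 genes was Spred1 (0.80), a value that 2.01% of genes reached, and Dusp4 had 0.71. With group means subtracted, Spred1 had r = 0.58, which 15.4% of genes reached, and 0.01 without Control 1.

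Mice of 24 and of 19 weeks within the treated group were compared by limma in a fit with 3 group means. This contrast was not used to choose the genes. None of the 10 passed, with adjusted p = 1 for each in the limma fit, and 0 had an unadjusted p under 0.05, against 2.7% of all genes. At 24 weeks 5 genes were higher and 5 lower, with a median of -0.007, and 44.5% of all genes were higher. Over all genes 0 passed, against 1 without Hydroxyurea 3 and 7 without Hydroxyurea 4, and the 10 genes passed in neither case. Either omission leaves 1 mouse at 19 weeks, which is then assumed to vary like the mice of the other groups. Spry4 had the largest difference, -0.28 ± 0.16 (SE, n = 2 per age), with a 95% interval from -0.65 to 0.09. Dusp6 had -0.05, with an interval from -0.39 to 0.28. Etv5, the gene with the narrowest interval, had -0.10, from -0.32 to 0.12. The widest interval was that of Spry1, from -1.15 to 1.22, since the fit shares 1 spread over all groups: the SE of its difference of 0.04 was 0.50 with Control 1 and 0.07 without it. Age and age at the start of treatment cannot be told apart here.

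**Figure D4:**
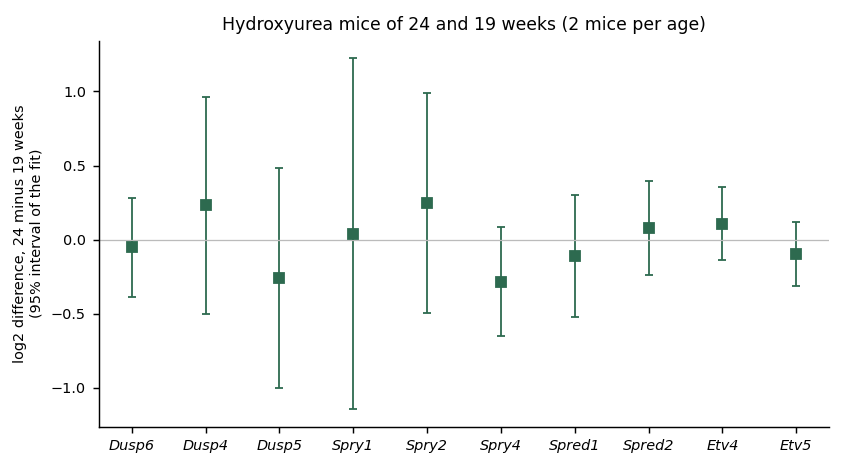
Log2 difference between Hydroxyurea mice of 24 and 19 weeks (y axis) for each of the 10 genes (x axis), with the 95% interval of the limma fit and 2 mice per age. Every interval includes 0, and that of Spry4 runs from -0.65 to 0.09.

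The rest of the pathway was described through 8 lists with 139 other genes, of which 130 were tested between treated and untreated mice. None passed (smallest limma adjusted p = 0.452). At an unadjusted p under 0.05, 15 were lower (11.5%) and 2 higher (1.54%), against 6.36% and 3.53% of all genes. The median difference over the 130 was -0.02, and 76 were lower. Treated and Control values did not overlap for 10 lower and 2 higher genes (7.69% and 1.54%), against 5.11% and 2.38% of all genes. The lists were chosen with earlier results of these data known, and the share of lower genes moves with the scaling. Over all genes, the lower share of unadjusted calls was 64.3%, 90.2% with median centring and 54.4% with the deposited value table.

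At the top of the pathway, 10 of 17 genes listed as FGF and EGF family ligands were lower (median -0.05). Of 16 genes listed as receptor tyrosine kinases 10 were higher (median 0.10). The ligand list includes Fgf12 (0.06), Fgf13 (0.17) and Fgf14 (-0.095), which are not secreted ligands. The receptor list includes Fgfrl1 (0.11), which lacks a kinase domain. The count of lower genes on the ligand list was 13 with median centring and 14 with the deposited value table. Lower receptors numbered 6, against 4 with normexp and 7 with median centring. The receptors Fgfr1 and Fgfr3 had differences of 0.01 ± 0.07 and -0.01 ± 0.08. Fgfr2 had 0.18 ± 0.07 and did not overlap between the groups, Egfr had -0.22 ± 0.10, and the BDNF receptor Ntrk2 had 0.13 ± 0.08. Igf1r, the receptor for insulin-like growth factor, had the lowest receptor value (-0.32 ± 0.06, limma adjusted p = 0.452) and was singled out after its value was seen. It lay at 2.29, 2.29, 2.41 and 2.26 in the Control mice and at 1.995, 2.01, 1.95 and 1.99 in the treated mice, without overlap. The lowest ligand value was that of Fgf5 (-0.41 ± 0.08, limma adjusted p = 0.452), which was singled out after its value was seen. Fgf5 lay at -0.35, -0.41, -0.47 and -0.27 in the Control mice and at -0.69, -0.73, -0.77 and -0.97 in the treated mice, without overlap.

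Kinases named from the core of the relay showed differences near 0. The RAF kinase Braf had 0.01 ± 0.08. The MEK genes Map2k1 and Map2k2 had 0.05 ± 0.09 and 0.07 ± 0.06, and Mapk3, which encodes an ERK, had 0.05 ± 0.07. Over the 17 kinases and scaffolds the median was 0.01, with 8 lower and 9 higher, but 15 lower with median centring and 10 with normexp. Adaptors and RAS regulators had 13 of 23 lower (median -0.008; 11 with quantile normalization or the deposited value table), with Sos1, a RAS activator, at -0.09 ± 0.08 and Nf1, neurofibromin, at 0.13 ± 0.11. In that list 3 genes were lower in treated mice without overlap, among them the FGF receptor adaptor Frs2 (-0.17 ± 0.05, limma adjusted p = 0.467) and the RAS inhibitor Rasa2 (-0.20 ± 0.07, limma adjusted p = 0.491), named after their values were seen.

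The lists of other brakes did not move in 1 direction, and not every gene on them is a brake on ERK. Dusp8, Dusp10 and Dusp16 act mainly on other MAP kinases, and Flrt3 promotes FGF signals. Of 7 other MAP kinase phosphatases 4 were lower and 3 higher, and 3 were lower with the deposited value table and 5 with median centring. Dusp1 had -0.22 ± 0.13 and Dusp7 -0.04 ± 0.06. Dusp8 had 0.34 ± 0.21 and, like Spry1, stood apart in Control 1, at 2.43 against 3.36 to 3.41 in the other Control mice. Among 13 genes listed as other feedback inhibitors 7 were lower. The count was 8 with quantile normalization and 10 with median centring, where 70.3% of all genes were lower. Spry3, the fourth Sprouty gene, had -0.27 ± 0.08 (limma adjusted p = 0.452), with Control values of -2.68, -2.39, -2.62 and -2.49 and treated values of -2.76, -2.85, -2.86 and -2.78. The treated values of Spry3 were all below the Control values. Errfi1, an EGF receptor inhibitor, had -0.33 ± 0.09 and did not overlap either. Spred3 had 0.05 ± 0.11 and Il17rd, an inhibitor of FGF signals, -0.16 ± 0.19.

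Of 13 ETS and SRF genes 9 were lower (median -0.09), with 8 lower under normexp and 11 under median centring. Etv1, the third PEA3 factor, had -0.09 ± 0.06 and did not overlap, Elk1 had 0.24 ± 0.23 and Srf -0.12 ± 0.08. Among 24 other ERK-induced targets 19 were lower, with a median of -0.10. Under the other scalings the count was 22 with median centring, 19 with quantile normalization, 18 with the deposited value table and 14 with normexp. Arc, which acts at active synapses, had -0.48 ± 0.15, Egr1 had -0.22 ± 0.09 and Fos -0.30 ± 0.20, while Phlda1 had 0.17 ± 0.11 and Ccnd1 -0.07 ± 0.08. Groups did not overlap for 0 of these 24 targets. The score of this list ran from -0.06 to 0.15 in the Control mice and from -0.19 to -0.02 in the treated mice, which overlap. Between 24 and 19 weeks, 0 of the 130 pathway genes passed limma (smallest adjusted p = 1), and 8 had an unadjusted p under 0.05 (6.15%, against 2.7% of all genes).

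**Figure D5:**
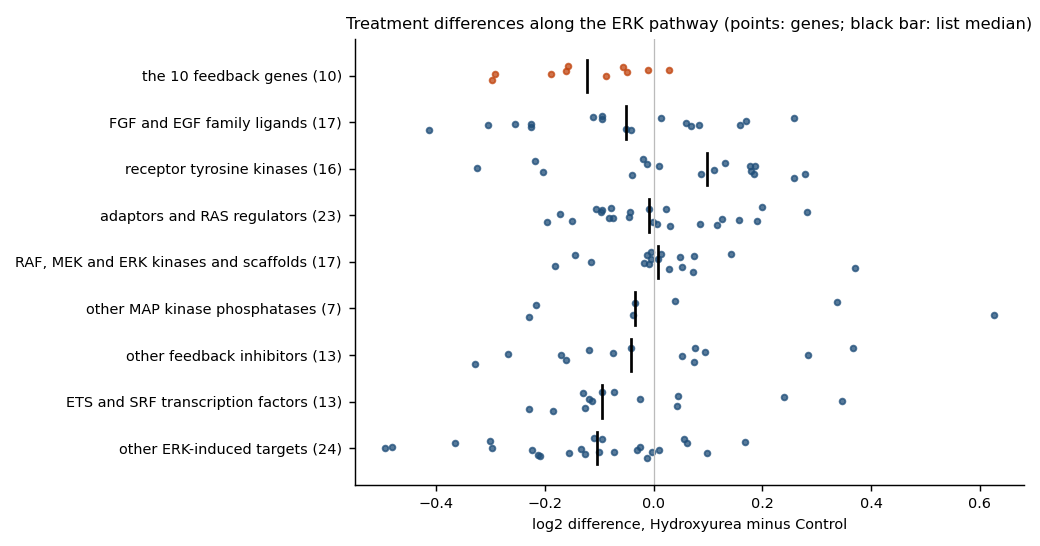
Log2 difference, Hydroxyurea minus Control (x axis), of each tested gene in the 8 pathway lists (blue) and of the 10 feedback genes (orange), with the number of genes in brackets and the list median as a black bar. List medians run from -0.10 for ERK-induced targets to 0.10 for receptor tyrosine kinases, and that of the 10 feedback genes is -0.12.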

How the data were processed

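Feature Extraction 12.0.3.1 read the scans, per the file headers, and the deposited processed signal intensity is background-subtracted within an array and not normalized between arrays. Per the labels' protocols, 200 ng of RNA was labelled with Cy3. Each array's z score, of log signal, is what the authors' deposited value table gives (a recomputed score differed by at most 0.005), and it served for counts, signs and correlations. Further steps are not given in the sources used here.

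Values were log2 of the processed signal minus the array's 75th percentile. Spots marked as outliers were left out, and other spots of a probe were averaged. Of 55681 probes, 28331 carried a RefSeq accession of 1 gene. The brightest probe stood for a gene. Tested genes stood well above background on 4 or more of the 8 arrays and had 6 or more values. No spot was saturated. Between 59.6% and 76.7% of probes were well above background, and the number of arrays limits precision.

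The comparisons used limma 3.58.1 (lmFit, eBayes; R 4.3.3). Tests were two-sided, p-values were adjusted by Benjamini-Hochberg across the tested genes, and 0.05 was the threshold. Correlations used values minus group means and exact permutation within groups over 576 orders. The labels do not name litters, so p-values measure the spread between these mice.

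Named genes were the 10 members, a fixed set from the pathway lists and the 5 genes most like Dusp6; a few of these are not reported here. Members and lists were chosen with earlier results of these data known. Older list symbols were updated through the gene table of GRCm38.p6. On simulated data with 16585 genes the treatment fit found 53.7% of true 1.5-fold and 80.6% of true 2-fold changes. The age fit found 26.9% and 58.2%. The simulated noise was independent between genes, unlike in these mice. Changes below 1.5-fold, the size seen in the 10 genes, were not simulated. Alternatives were other scalings, normexp on the median spot signal (the mean spot signal was not used here), filters and probe rules. Others were a variance model, a replicate block, the dentate gyrus score as a covariate, 19-week mice and left-out arrays.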

Additional observations from a re-analysis of the deposited data

Results flagged for a closer look

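Of 20 sets of 4 mice (10 genes in each group), 2 held a mouse far from the other 3 by Dixon's criterion. About 1 set in 20 does so by chance. Spry1 in Control 1 was at -0.655, against 0.83 to 0.88 in the other Control mice, and Control 1 is the array with the noisiest replicate spots. Spry2 in Control 3 was at -3.893, against -3.12 to -2.98 in the other Control mice, and Control 3 had the lowest dentate gyrus score. The part of the spot noise and of the marker score in these values was not tested.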

How the results depend on the processing

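In the treatment comparison 0 genes passed limma under the main setting and all 20 alternatives, the replicate block among them, while 1643 genes had an unadjusted p under 0.05. The replicate numbers did not pair the mice (same-numbered deviations correlated at -0.21 to 0.20), and that number was 1317 with the replicate block. It was 2483 with no filter on dim probes, and 1091 (without Control 4) to 2519 (without Control 1) when each mouse was left out. The number of the 10 genes lower in treated mice was 7 to 10 over the alternatives, with 9 after leaving out Control 1 and Hydroxyurea 2 together. It was 7 without Hydroxyurea 4, where 52.3% of all genes were lower. It was 10 with median centring, where 70.3% of all genes were lower. Dusp6, Dusp4, Spry4, Spred1, Etv4 and Etv5 stayed below 0 in the 19 alternatives on the log2 scale, Dusp6 at -0.38 to -0.23 and Spred1 at -0.37 to -0.14. Dusp5, Spry1, Spry2 and Spred2 changed sign in some. Etv5 moved to -0.17 with median centring, a scaling that also gave Dusp6 its lowest value and put the median of all genes at -0.085. In the age comparison 0 genes passed, with 0 to 7 when each mouse was left out (1 without Hydroxyurea 3 and 7 without Hydroxyurea 4), and 0 correlations with Dusp6 passed in the alternatives run. Signal over background limits Dusp5 most.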
